A study of Mus musculus with 24 samples.

Results

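Aurka, the gene of the mitotic kinase Aurora A, was followed across the lung and skin arrays of a mouse irradiation study. It was 1 of 8750 features and was carried by 1 of the 9275 probes, the only probe whose single gene symbol is Aurka. The gene was chosen from these same data because its ratio was already lower than in the same strain's control at 1 h in both tissues. Its differences from control are therefore given as descriptions with standard errors and without p-values. These standard errors rest on a spread pooled over all groups of a tissue, not on the strain differences at that time alone. In brief, the Aurka ratio in skin lay below every control on all 9 irradiated arrays, whereas in lung it was low at 1 h, at the control level at 12 h and low again at 72 h. Of the other mitosis genes, 42 were measured, and their median difference from control in skin was -0.07 at 1 h, -0.71 at 12 h and -0.48 at 72 h on the log2 scale. At 1 h the strains disagreed, with a median below control in A/J and C57BL/6J and above it in C3H/HeMs.

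Female mice aged 12 to 13 weeks were used, from 3 inbred strains named A/J, C57BL/6J and C3H/HeMs. Lung was taken from mice without irradiation and 1 h, 12 h or 72 h after 10 Gy of gamma rays to the thorax. Skin, in its full layers, was taken from mice without irradiation and at the same times after 30 Gy to the hind leg. On each of the 24 arrays a pool of RNA from 3 mice was set against a common reference, a mixture of purchased RNA from 10 organs, so that each tissue had 4 groups of 3 arrays with 1 array per strain. Tissue, dose, dye and irradiated site changed together and cannot be told apart. With strain as a block, a p-value here rests on how far differences between groups varied from strain to strain. It does not measure the spread between single mice, and precision is limited by the number of arrays.

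Aurora A is a serine/threonine kinase of the centrosome and the spindle poles. It helps centrosomes to mature and the bipolar spindle to form, and it activates Plk1, another mitotic kinase, before cells enter mitosis. Its mRNA and protein build up towards mitosis, the protein is destroyed as cells leave mitosis, and in adult skin dividing cells sit mainly in the basal epidermis and the hair matrix, whereas most cells of the adult lung are not dividing. After DNA damage, p53 raises Cdkn1a, an inhibitor of cyclin-dependent kinases, and genes of the mitotic programme are held down through CCAAT boxes, bound by NF-Y, and through the cell cycle homology element, bound by the DREAM complex.

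In the mouse reference (RefSeq, GRCm38.p6) Aurka lies on the minus strand at chr2:172356190-172370886. The reference table holds a window of 250 bases before and 50 bases after an annotated start of a gene, and some genes have several windows. Aurka has 1, and its start, base 172370570, lies inside the annotated span of the gene. The windows were searched on both strands for the letters CCAAT and for TTTGAA, the letters of the cell cycle homology element. Neither motif overlaps the other by its letters. Stretches of 30 bases around the matches are shown because these elements are the ones known from genes of the mitotic programme, and capitals mark the match. The first base of the CCAAT matches lies at -51 (chr2:172370604-172370633) and -19 (chr2:172370572-172370601) from the start of Aurka. The TTTGAA match begins at base 33 after the start (chr2:172370521-172370550). The windows of Kif4 (chrX:100626072-100626101, plus strand) and Plk1 (chr7:122159453-122159482, plus strand) are added for comparison, with a match from base 20 and base 31.
Aurka, first CCAAT: gtttacggtgagCCAATcacagaacggcat
Aurka, second CCAAT: ctccggctctagCCAATcagctcttggagt
Aurka, TTTGAA: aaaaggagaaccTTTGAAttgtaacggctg
Kif4, TTTGAA: ctctgggatcaaTTTGAAacttggcggtta
Plk1, TTTGAA: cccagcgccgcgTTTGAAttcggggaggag
Of the 27025 genes in the reference table, 41.1% held CCAAT, 20.2% held TTTGAA and 7.97% held both within their window. Of the 42 measured mitosis genes, 35 had a window, and of these 25 held CCAAT, 22 held TTTGAA and 20 held both. A match in these letters is a description of the sequence and not a bound site.

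Aurka lay below the reference on every array. Its ratio was among the lowest in lung, where it ranked between percentile 0.937 and 5.23 of all features on an array, and it ranked between percentile 2.71 and 21.2 in skin. No Aurka value stood at the limit of the deposited ratio or at exactly 0. Signal intensities were not analysed here, so how far the Aurka spot lay above background on each array is unknown.

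All levels that follow are log2 ratios of the sample over the reference. The direction was taken from the dyes in the labels, reading the deposited ratio as Cy5 over Cy3, and in this direction most markers of each tissue lay above the reference in that tissue. In lung without irradiation, Aurka measured -2.32 (A/J), -3.11 (C57BL/6J) and -2.40 (C3H/HeMs). At 1 h it measured -4.08, -3.36 and -3.37 in the same order of strains. Every 1 h array was below every control array. At 12 h the values were -2.39, -2.74 and -2.45, which overlapped the controls. At 72 h they were -3.85, -3.89 and -3.93, again below every control and close to each other.

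In skin without irradiation Aurka measured -1.44 (A/J), -0.98 (C57BL/6J) and -1.20 (C3H/HeMs). At 1 h after 30 Gy it measured -2.63, -2.26 and -2.77. No skin array at 1 h reached the lowest control. At 12 h the values were -2.13, -2.17 and -1.98, and at 72 h they were -2.03, -2.04 and -2.71. The C3H/HeMs array at 72 h was the lowest of that group and lay within the range of the 1 h arrays, while the other two lay within the range of the 12 h arrays.

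**Figure D1:**
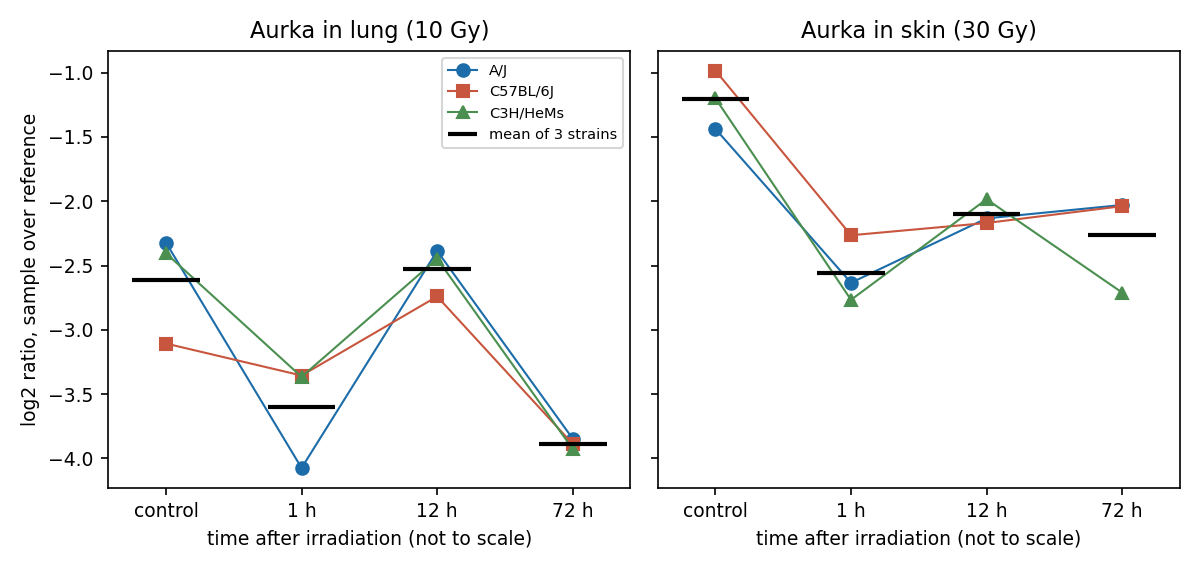
Log2 ratio of Aurka (sample over reference, vertical axis) on each of the 24 arrays, by group, with lung in the left panel and skin in the right panel; coloured lines join the arrays of a strain and black bars are means of 3 strains. Skin falls into control arrays from -1.44 upwards and irradiated arrays from -1.98 downwards, whereas lung at 12 h (mean -2.53) overlaps the lung controls (mean -2.61).

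Ordered by mean, the 8 groups ran from skin without irradiation at -1.21 ± 0.23 (SD, n = 3), through skin at 12 h at -2.10 ± 0.10, skin at 72 h at -2.26 ± 0.39, lung at 12 h at -2.53 ± 0.19, skin at 1 h at -2.56 ± 0.26, lung without irradiation at -2.61 ± 0.43 and lung at 1 h at -3.60 ± 0.41, to lung at 72 h at -3.89 ± 0.04. Only 2 pairs of neighbours in this order did not overlap: skin without irradiation against skin at 12 h, and lung without irradiation against lung at 1 h. The middle groups, from skin at 12 h to lung without irradiation, were not separated by their spread from the next group in the order.

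Relative to the control of the same strain, the lung ratio at 1 h differed by -1.75 (A/J), -0.25 (C57BL/6J) and -0.96 (C3H/HeMs). The mean was -0.99 (SE 0.25 from the fit of all 4 lung groups), or 50.4% of the control ratio. Of the 8750 features, 31 had a lower mean. The SD of the 3 strain differences was 0.75. The size thus varied widely between strains, and without A/J the mean was -0.61. Of all features, 14.9% were lower than control in all 3 strains at this time, so the shared sign alone is common. In C57BL/6J the control itself was the lowest of the 3 lung controls.

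At 12 h in lung, the differences from control were -0.06, 0.37 and -0.04, with a mean of 0.09 (SE 0.25). Strains did not share a sign (10.7% of features were lower in all 3), and without the C57BL/6J control the mean was -0.17. At 72 h the differences were -1.52, -0.78 and -1.52, with a mean of -1.28 (SE 0.25), or 41.3% of the control ratio, and 65 features had a lower mean. All 3 strains were then below control, as were 13.6% of all features.

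In skin the difference from control at 1 h was -1.20 (A/J), -1.28 (C57BL/6J) and -1.57 (C3H/HeMs). Its mean of -1.35 (SE 0.23), or 39.3% of the control ratio, was lower than that of all but 6 of the other features. At 12 h the differences were -0.70, -1.19 and -0.78, with a mean of -0.89 (SE 0.23) and 54.0% of the control ratio. At 72 h they were -0.59, -1.05 and -1.51, with a mean of -1.05 (SE 0.23) and 48.2% of the control ratio. The 3 strains were close to each other at 1 h and more spread at 72 h. Features lower in all 3 strains made up 18.2%, 15.7% and 15.4% of all features at the 3 times. An irradiated ratio below every control on all 9 arrays, as Aurka had in skin, was found for 0.537% of features, and in lung, where Aurka did not meet it, for 0.08%. Lower than the same strain's control on all 9 arrays were 2.42% of features in skin, Aurka among them, and 0.754% in lung, without Aurka.

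The choice of Aurka rests on its place among the features lower at 1 h in both tissues. These were 328 features, or 3.75% of all, and 251 of them had a gene symbol. Ranked by the smaller of the 2 mean differences, Aurka had rank 5 of those with a symbol. Just ahead of it stood Nefm, a neurofilament protein of axons, with -1.59 in lung and -1.25 in skin, Noxred1 with -1.16 and -1.13, Apoc4, an apolipoprotein, with -1.05 and -1.15, and Gulo, the enzyme of the last step of vitamin C synthesis, with -1.01 and -1.07. Cend1, a neuronal protein, stood just behind it with -0.87 and -0.94. No gene of the mitosis list was among the first 5.

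The later course was tested as 72 h against 12 h, a difference that holds neither the controls nor the 1 h arrays. Its standard error, interval and p do draw on those arrays, since the 4 groups of a tissue share their estimate of the spread. The 12 h and 72 h values were also known when Aurka was chosen, so these tests are not independent of the choice. Between 12 h and 72 h, Aurka in lung differed by -1.46 (A/J), -1.15 (C57BL/6J) and -1.48 (C3H/HeMs). The mean difference was -1.36 (SE 0.25, 95% confidence interval -1.92 to -0.80), lower in 3 of 3 strains, and the adjusted p from limma over all features was 0.327. Of 8750 features none passed in this comparison (0%), 509 had an unadjusted p under 0.05, and 9 had a smaller p than Aurka (unadjusted p = 0.000374 in the limma fit). The 72 h and 12 h arrays of Aurka in lung did not overlap, but the difference did not pass the adjustment over all features.

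In skin the 72 h ratio minus the 12 h ratio was 0.10 (A/J), 0.13 (C57BL/6J) and -0.73 (C3H/HeMs). Its mean of -0.16 (SE 0.23, interval -0.68 to 0.35) had an adjusted limma p of 0.902, and the strains did not share a sign. Without the C3H/HeMs array at 72 h the mean was 0.05. Again no feature passed (0%), and 623 had an unadjusted p under 0.05. The skin difference minus the lung difference was 1.20 (SE 0.34, interval 0.48 to 1.92), with an unadjusted p of 0.00286 and an adjusted p of 0.501 in a limma fit of all 24 arrays, where 0% of features passed. A different later course in the 2 tissues was therefore not established at the threshold of 0.05. Like the lung test, these tests were not independent of the choice of Aurka, whose 12 h and 72 h values were then known.

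Without irradiation, Aurka was higher in skin than in lung against the same reference. The difference was 1.40 (SE 0.25), a 2.65-fold higher ratio, and every skin control exceeded every lung control. The same control arrays entered the choice of Aurka, so no p is given. Of all features, 58.1% passed in this comparison in a limma fit of all 24 arrays, 35.6% higher and 22.5% lower in skin, so such a difference was common. Cy3 labelled all lung samples and Cy5 all skin samples, and tissue and dye cannot be told apart.

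The Aurka level did not differ detectably between the strains. In lung the means over the 4 groups were -3.16 (A/J), -3.27 (C57BL/6J) and -3.04 (C3H/HeMs), and the widest difference, C3H/HeMs minus C57BL/6J, was 0.24 (interval -0.25 to 0.72). In skin they were -2.06, -1.86 and -2.17, with a widest difference of -0.30 (interval -0.75 to 0.14). The adjusted p of limma's F test over strains was 0.696 in lung, where 2.95% of features passed, and 0.571 in skin, where 0.377% passed.

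The direct partners of Aurora A gave few values that followed it. Counts of list members at an unadjusted p under 0.05 are read against all features, of which 0.971%, 5.07% and 5.68% were lower and 1.27%, 6.98% and 6.72% higher in lung at the 3 times. In skin 2.49%, 3.71% and 3.44% were lower and 1.87%, 2.99% and 3.95% higher. Among the Aurora kinases only Aurkb, the kinase of the chromosomal passenger complex, was measured beside Aurka, since Aurkc was not on the array. Aurkb differed from control by 0.06, -0.12 and 0.07 at the 3 times in lung and by -0.21, -0.58 and -0.38 in skin. None of these passed, and the strains disagreed. At 12 h in skin, Aurkb stood at -1.09 from control in A/J and -1.33 in C57BL/6J but at 0.68 in C3H/HeMs, where its control was already the lowest of the 3. The activators Tpx2 and Bora, which bring Aurora A to the spindle and to Plk1, were not measured, nor were Fzr1 and Cdc20, which direct the anaphase-promoting complex that removes it.

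Plk1, the kinase that Aurora A activates, differed from control in lung by -0.05, -0.06 and 0.02. In skin it differed by -0.54 at 1 h, -0.78 at 12 h and -0.44 at 72 h, with adjusted limma p-values of 1, 0.612 and 0.681. At 1 h in skin, Plk1 was lower in A/J (-0.67) and C57BL/6J (-0.98) but not in C3H/HeMs (0.03), whereas Aurka was lower in all 3 strains.

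Of 13 listed activators and cofactors of Aurora A, 6 were measured and none passed at any time in either tissue. The only one lower at an unadjusted p under 0.05 was the importin Kpna2, at -0.52 and -0.64 in skin at 12 h and 72 h. Of 15 measured substrates none passed, and in lung 1 was lower at an unadjusted p under 0.05 at 12 h and 1 at 72 h, or 6.67% of the list each time against 5.07% and 5.68% of all features. The substrates had a median difference in lung of -0.17, 0.04 and -0.01 at the 3 times and in skin of -0.02, -0.18 and -0.26. At 12 h in skin, 4 substrates were lower and 2 higher at an unadjusted p under 0.05, or 26.7% and 13.3% of the list against 3.71% and 2.99% of all features. The lower ones included Tacc3, a spindle protein (-1.08), and Cenpa, the centromeric histone (-1.22). For the 6 measured genes of its inhibition and turnover, again none passed, with 1 and 2 higher at an unadjusted p under 0.05 in lung at 12 h and 72 h and 2 higher in skin at 72 h, against 6.98%, 6.72% and 3.95% of all features. One of them, Ube2c, the ubiquitin-conjugating enzyme of the anaphase-promoting complex, stood 1.07 above its skin control at 72 h, opposite to Aurka, with an adjusted p of 0.65 in the limma fit. Its skin controls were already at 5.40 (A/J), 3.79 (C57BL/6J) and 4.39 (C3H/HeMs). The median of the measured mitosis genes on those arrays lay between -0.28 and 0.54. What the Ube2c probe reports in skin was not tested.

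The mitosis list is the wider programme to which Aurka belongs. Of 66 listed genes, 42 were measured, and none passed in either tissue at any time, against 0.0114%, 0.114% and 0.114% of all features in lung by time (higher and lower together; at 72 h 0.0914% higher and 0.0229% lower) and 0% in skin at each time. In lung the median difference of the list was -0.01, -0.05 and -0.08 at the 3 times, with 21, 24 and 25 of 42 genes below control on average. Over all features the medians were -0.01, 0.07 and 0.05, and 52.0%, 40.6% and 42.5% were below control on average. At an unadjusted p under 0.05, 0 mitosis genes were lower and 1 was higher in lung at 1 h, 3 were lower and 2 higher at 12 h, and 3 were lower and 3 higher at 72 h. The lower ones at 12 h and 72 h were 7.14% of the list, near the 5.07% and 5.68% of all features. By strain the list medians in lung at 12 h were -0.20 (A/J), -0.03 (C57BL/6J) and 0.15 (C3H/HeMs). At 72 h they were -0.43, -0.01 and 0.17 in the same order, so the strains disagreed. Averaged over strains, the list median stayed near its lung control while Aurka went from low to control level to low.

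In skin the list had a median of -0.07 at 1 h, with 3 of 42 genes lower in all 3 strains. The strains disagreed at that time, with list medians of -0.30 (A/J), -0.39 (C57BL/6J) and 0.46 (C3H/HeMs). At 12 h the median was -0.71, with 27 lower in all 3 strains, and at 72 h it was -0.48, with 28. For all features the medians were -0.05, -0.03 and -0.01. At an unadjusted p under 0.05 the number of lower mitosis genes was 0, 25 and 15, or 0%, 59.5% and 35.7% of the list, against 2.49%, 3.71% and 3.44% of all features. No mitosis gene was as low relative to control as Aurka at 1 h in either tissue, which is no test, since Aurka and not these genes was chosen for low values at 1 h. At 12 h in skin, 16 of the 42 were lower than Aurka, and at 72 h in skin 4 were, namely Birc5, Cdca3, Mki67 and Top2a. At 72 h in lung the only one was Ccnf, cyclin F.

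**Figure D2:**
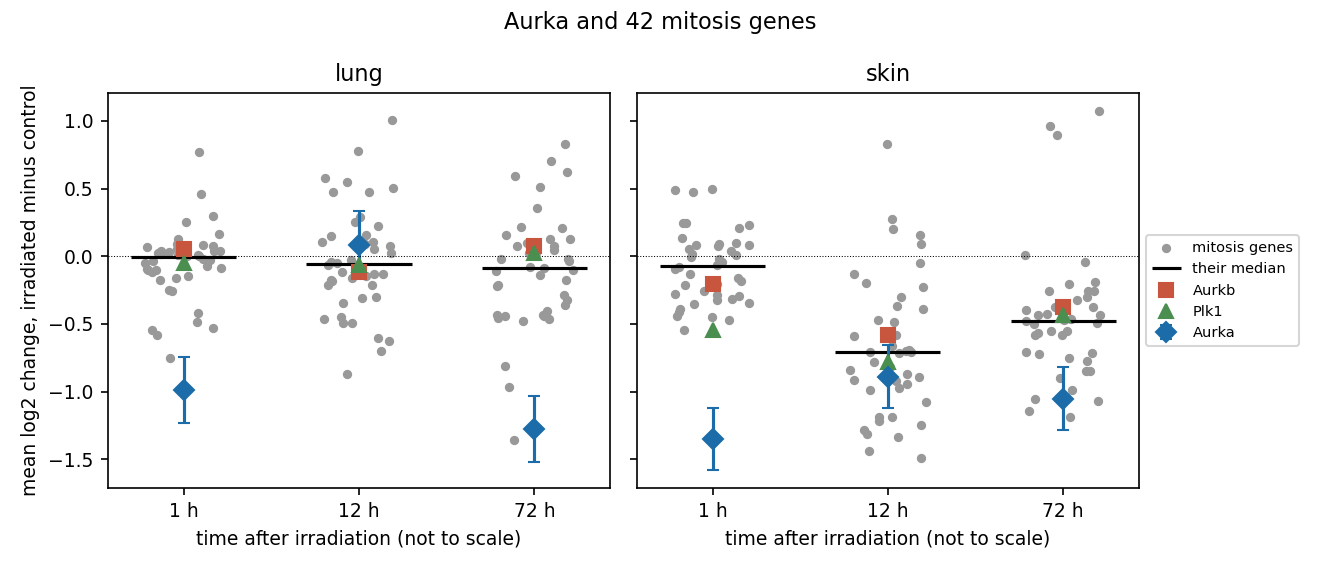
Mean difference from control (log2, vertical axis) of Aurka (diamond, with its standard error), Aurkb (square), Plk1 (triangle) and 42 mitosis genes (grey points, with their median as a line; Aurkb and Plk1 are among them) at 1 h, 12 h and 72 h in lung (left) and skin (right). Aurka, chosen for its 1 h values, lies below all grey points at 1 h in both tissues. In skin the grey points have medians of -0.07, -0.71 and -0.48 at the 3 times. The 1 h points average strains whose list medians disagreed in sign.

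The mitosis genes with the smallest p at each time are named as values, since none passed. In lung at 1 h they were Ncaph, a condensin subunit, at 0.77, and below control Melk (-0.54), the chromosome motor Kif4 (-0.53) and the kinetochore motor Cenpe (-0.48). At 12 h in lung they were Ncaph at 1.01, Cdc25c, a phosphatase that activates Cdk1, at 0.57, Anln at -0.63 and Cenpa at -0.49. At 72 h in lung they were Ccnf at -1.36, Melk at -0.96, Ncaph at 0.71 and Cdc25c at 0.51. Melk, a kinase of dividing cells, stood at -0.54, 0.51 and -0.96 in lung over the 3 times, a course of the same signs as that of Aurka. Ncaph was above control in all 3 lung strains at each time, opposite to Aurka at 1 h and 72 h.

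In skin at 1 h the 4 genes were Zwint (0.49), Plk1 (-0.54), Kif20a (-0.47) and Kif4 (-0.39). At 12 h they were Kif20a, a motor of cytokinesis (-1.25), Nusap1, a spindle protein (-1.32), Cks2, a partner of cyclin-dependent kinases (-1.29), and Cenpf, a kinetochore protein (-1.44). Their adjusted p from limma lay between 0.168 and 0.225, and each was below control in 3 of 3 strains. At 72 h they were Birc5, also called survivin (-1.07), Top2a, the mitotic DNA topoisomerase (-1.14), Mki67, the Ki-67 antigen (-1.19), and Ube2c (1.07). The first 3 of these were again below control in every strain.

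The DNA replication list had 23 of 43 genes measured. Its median at 1 h in skin was 0.13, with 4 of 23 genes below control on average, against 57.1% of all features. By strain this median was -0.17 (A/J), -0.08 (C57BL/6J) and 0.78 (C3H/HeMs), so only C3H/HeMs was above control. The list's skin median was -0.37 at 12 h and -0.30 at 72 h. In lung its medians were -0.08, 0.08 and 0.01. None of its genes passed in either tissue. At an unadjusted p under 0.05, 2 and 4 were lower in skin at 12 h and 72 h, or 8.70% and 17.4% of the list against 3.71% and 3.44% of all features, and at 1 h 0 were lower and 1 was higher. Among 6 measured members of the DREAM complex and NF-Y none passed (2 and 1 were higher at an unadjusted p under 0.05 at 12 h in lung and skin, against 6.98% and 2.99% of all features), and their medians in skin were 0.04, -0.11 and -0.17.

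Of 15 measured targets of p53, 1, 4 and 4 passed as higher in lung at the 3 times, against 0.0114%, 0.114% and 0.0914% of all features. The list's lung median was 0.14, 0.82 and 0.60. At an unadjusted p under 0.05, 4, 9 and 9 of the targets were higher in lung. That was 26.7%, 60.0% and 60.0% of the list, against 1.27%, 6.98% and 6.72% of all features. In the limma fit, Cdkn1a rose in lung by 2.23 at 1 h (SE 0.20, adjusted p = 0.0133). Against control it rose by 2.71 at 12 h and by 2.54 at 72 h, with adjusted p-values from limma of 0.00158 and 0.00346. It was above control in every strain at each of these times. The 1 h call was lost without the control or the 1 h array of C3H/HeMs, without its 12 h array, without the control or the 72 h array of A/J, or without the 1 h array of C57BL/6J. No feature passed in lung at any time when only the compared groups were fitted, or at 72 h with the arrays rich in ratios of 0 as a further block. Its lung ratio lay between 0.41 and 1.10 in controls and between 2.89 and 3.87 on irradiated arrays. Ccng1, a cyclin G, rose by 2.35 at 12 h and 1.75 at 72 h, Trp53inp1, a p53-induced nuclear protein, by 1.89 and 1.40, and Ephx1, an epoxide hydrolase, by 1.80 and 1.48. At 1 h, 12 h and 72 h, 4, 2 and 2 of the 15 targets had a lung mean below control. Mdm2, the ligase that removes p53, stood 1.30 above control in lung at 12 h without passing (adjusted p = 0.0569). In skin none of the 15 passed, and Cdkn1a stood 0.82, 1.51 and 0.92 above control, and 6, 7 and 8 targets were higher at an unadjusted p under 0.05, or 40.0%, 46.7% and 53.3% of the list against 1.87%, 2.99% and 3.95% of all features. At 12 h in lung, where Aurka was at the control level, Cdkn1a stood 2.76 (A/J), 2.45 (C57BL/6J) and 2.91 (C3H/HeMs) above control. At 72 h, where Aurka was low, Cdkn1a stood 2.42, 2.24 and 2.96 above control in the same order. A link between Cdkn1a and Aurka was not tested.

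The genes whose course over the 24 arrays was most like that of Aurka were not mitosis genes. Likeness was measured as Pearson's r after the mean of each strain in each tissue was subtracted, and the points share arrays, reference and scaling, so r is a description. The 10 highest were Nefm (r = 0.89), Cep128 (0.89), Syngr3 (0.87), Elavl4 (0.84), Cideb (0.83), 1700012B09Rik (0.81), Cend1 (0.81), Gulo (0.80), Lrrc56 (0.80) and Gcnt3 (0.78). Cep128 is a protein of the centriole's appendages. Syngr3 belongs to synaptic vesicles, Elavl4 is a neuronal RNA-binding protein and Cideb is a lipid droplet protein of liver. All 10 lay below the reference in the controls of both tissues, at -3.46 to -0.07 in lung and -2.66 to -0.50 in skin.

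Nefm, the closest in course, had lung ratios of -1.77, -3.22 and -2.42 in the A/J, C57BL/6J and C3H/HeMs controls. They were -4.42, -3.48 and -4.29 at 1 h, -2.48, -1.98 and -2.53 at 12 h, and -4.07, -3.60 and -4.26 at 72 h. As with Aurka, the 1 h and 72 h arrays were low and the 12 h arrays lay near the controls. Cep128 differed from control by -0.49, 0.17 and -0.40 in lung and by -0.61, -0.64 and -0.71 in skin, a smaller size than that of Aurka at every time except 12 h in lung.

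**Figure D3:**
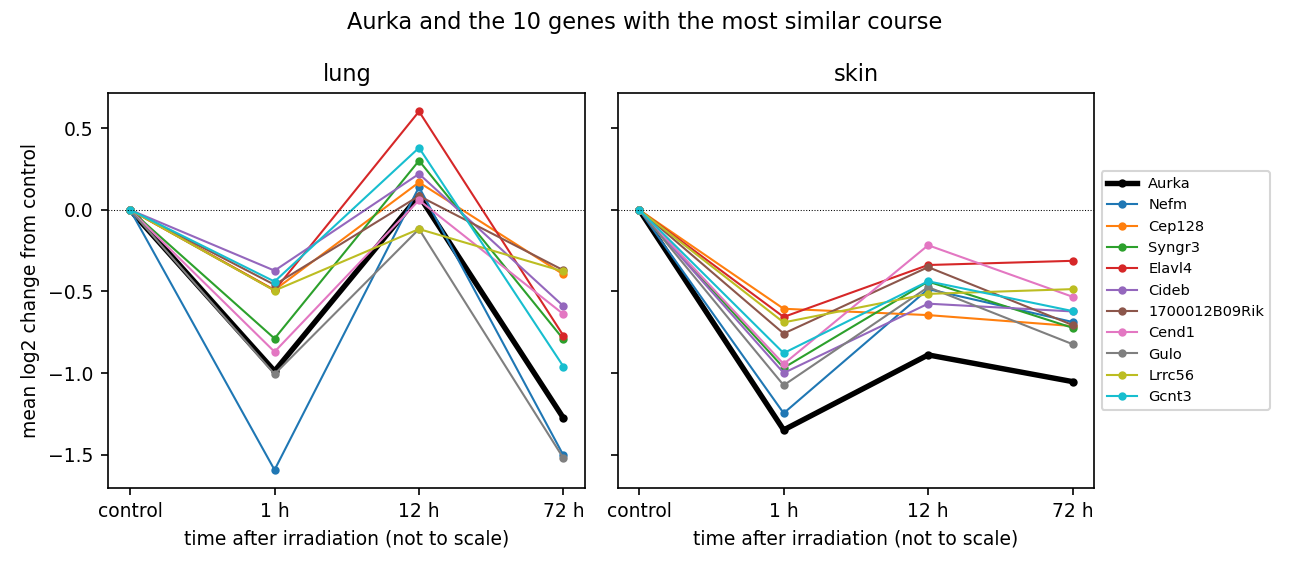
Mean difference from control (log2, vertical axis) of Aurka (thick black line) and the 10 genes with the highest r (coloured lines) in lung (left) and skin (right) by group. In lung all 10 were below control at 1 h and 72 h and closer to or above control at 12 h; in skin Aurka had the lowest mean of the 11 genes at each time.

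Within the 12 lung arrays the 5 closest were A830010M20Rik (r = 0.95), Nefm (0.95), Ace, the angiotensin-converting enzyme (0.92), Cep128 (0.91) and Gcnt3 (0.91). Within the 12 skin arrays they were Kif1a, an axonal motor (0.96), Afp, alpha-fetoprotein (0.95), Uox, urate oxidase (0.95), Xylb, xylulokinase (0.93), and Mapt, the microtubule protein tau (0.93). Afp was at the limit of the ratio on some arrays. No gene was among the first 5 in both tissues. The mitosis list had a median r of 0.11 over the 24 arrays, against a median of 0.03 over all features. Of its genes 34 of 42 were above 0, or 81.0% against 54.6% of all features. Its highest member was Kif4 at 0.66. Kif4 differed from its lung control by -0.53, -0.21 and -0.46 at the 3 times and from its skin control by -0.39, -0.70 and -0.58. Within lung, 22 of the 42 were above 0, or 52.4% against 50.4% of all features. There 8 exceeded 0.5 (19.0% against 6.48%), with Melk highest at 0.86. Within skin, 34 were above 0 (81.0% against 57.1%) and 2 exceeded 0.5 (4.76% against 10.4%). Of the 10 closest genes over both tissues, 6 had a promoter window, of which 4 held CCAAT, 2 held TTTGAA and 1 held both.

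Because several of these genes are known from nerve or liver, lists of neuronal, liver and testis genes were added after their values were seen, leaving out the genes named here. The median r was 0.07 for 13 neuronal, 0.16 for 14 liver and 0.06 for 7 testis genes over the 24 arrays. In skin the medians were 0.28, 0.47 and 0.25. For all features the median r was 0.03 over the 24 arrays and 0.06 in skin. The liver list lay far below the reference in the controls, with a median ratio of -4.94 in lung and -3.98 in skin. In skin at 1 h its median difference from control was -0.52, with 12 of 14 genes lower on average, and in lung at 1 h it was -0.02, with 7 of 14 lower. For the neuronal list these medians were -0.17 in skin, with 11 of 13 lower, and -0.06 in lung, with 7 of 13. For the testis list they were -0.30, with 6 of 7 lower, and -0.01, with 5 of 7. Of all features, 57.1% were lower on average at 1 h in skin and 52.0% in lung. Among skin features with a ratio close to that of Aurka, described next, the share was 91.7%.

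Features with a ratio like that of Aurka showed how far such low ratios moved together. In skin, 496 features had a mean ratio within 0.5 of that of Aurka. At 1 h, 455 of them, or 91.7%, were lower than control on average, with a median difference of -0.31, and none was as low as Aurka. By strain the median was -0.09 (A/J), -0.44 (C57BL/6J) and -0.46 (C3H/HeMs). Centred on these features in place of all features, the Aurka difference in skin at 1 h was -1.01, and with quantile scaling it was -1.04. At 12 h and 72 h their medians were -0.11 and -0.09, and 8 and 4 of them were lower than Aurka. Many of these features are probes without a single gene symbol, and named genes were not taken apart from them. Their differences at 72 h ran from -1.72 to 2.41, so the median near 0 does not describe each feature. Features of low ratio in skin at 1 h were thus shifted down as a group, and Aurka, chosen for a low value at this time, lay below all of them.

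In lung 163 features had a ratio close to that of Aurka. Their median difference was -0.06 at 1 h, -0.16 at 12 h and -0.18 at 72 h, and 4, 109 and 11 of them were lower than Aurka. The medians differed between strains, and at 72 h they were -1.03 (A/J), 0.32 (C57BL/6J) and 0.05 (C3H/HeMs). In C57BL/6J the Aurka difference of -0.78 at 72 h stood against a median of 0.32 for these features. At 12 h the A/J median was -0.85, while Aurka stood at -0.06 in the same strain.

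**Figure D4:**
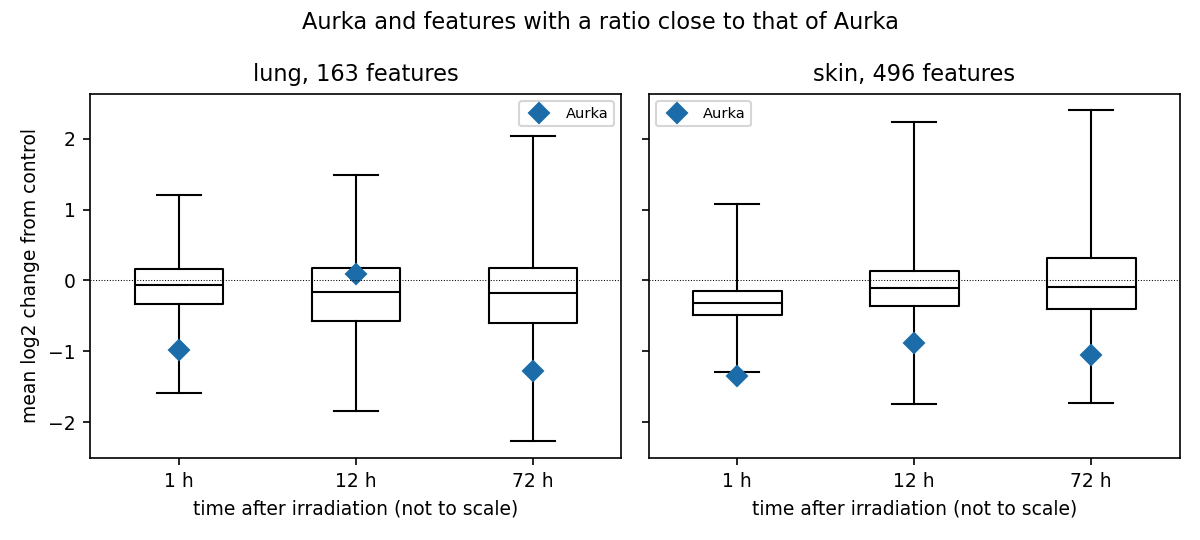
Mean difference from control (log2, vertical axis) of the features whose mean ratio lies within 0.5 of that of Aurka, 163 in lung (left) and 496 in skin (right); boxes show the quartiles and the median, whiskers the lowest and highest value, and diamonds Aurka. In skin at 1 h the box lies below 0 and Aurka lies below the lowest whisker, at -1.35 against -1.29.

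A change in a bulk sample can reflect fewer cells of a type or less RNA per cell, which cannot be told apart here. The tissue markers lay on their own side of the reference: 6 of 7 measured lung epithelium genes were above it in lung controls and 7 of 7 epidermal genes in skin controls. In skin, all 4 measured hair follicle genes were below control on average at each time, with medians of -0.67, -0.80 and -1.66. The strains disagreed at first: the list's median at 1 h was -1.97 (A/J), -1.06 (C57BL/6J) and 1.02 (C3H/HeMs), and at 12 h it was 0.13 in A/J, whereas at 72 h all 3 were below 0 and 3 of the 4 genes were lower in every strain. The median ratio of that list lay between 0.65 and 2.22 in controls and between 0.08 and 0.46 at 72 h. The 11 measured skeletal muscle genes varied with the strain in skin: their median difference in C3H/HeMs was -3.72 at 12 h and -2.39 at 72 h, against 0.90 and 0.50 in A/J. In lung the B-cell list, with 10 genes measured, had medians of -0.23, -0.76 and -0.70. All 10 were lower on average at 1 h, against 52.0% of all features. By strain its medians at 12 h were -1.23 (A/J), -0.56 (C57BL/6J) and -0.26 (C3H/HeMs). At 72 h they were -1.41, -0.24 and -0.28 in the same order, so the list was lowest in A/J. At an unadjusted p under 0.05, 3 hair follicle genes were lower in skin at 72 h and 5 B-cell genes in lung at 12 h and at 72 h, against 3.44% of all features in skin and 5.07% and 5.68% in lung. None of these marker genes passed, and their part in the Aurka result was not tested.

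Arrays also differed in a technical way in lung. On 4 lung arrays, those of A/J and C3H/HeMs at 12 h and 72 h, between 115 and 674 ratios were exactly 0, against 1 to 23 on the other 8. Aurka was at the control level on the 2 such arrays of 12 h and low on the 2 of 72 h. In C57BL/6J, whose 4 lung arrays all belonged to the larger set, Aurka was highest at 12 h at -2.74, then in the control at -3.11 and at 1 h at -3.36, and lowest at 72 h at -3.89.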

How the data were processed

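The authors deposited a log10 ratio per probe, limited to ±2 and made with Agilent Feature Extraction per the submitters' processing notes. For its version, background and dye steps and the ratio's direction, the sources used here give nothing; Cy5 over Cy3, Agilent's usual direction, was assumed and set against tissue markers. Lung ratios (sample in Cy3) were turned in sign, multiplied by 3.32 to log2 and centred on the array median. The 9275 probes had 1 gene symbol (6433), several (381) or none (2461), and averaging probes by gene gave 8750 features. limma 3.58.1 in R 4.3.3 was fitted per tissue to 4 groups with strain as a block (6 residual degrees of freedom), and to all 24 arrays with 14 (level) or 12 (course) residual degrees of freedom. Benjamini-Hochberg adjustment ran over all features with a threshold of 0.05. The replicate number is the strain, which stayed in the fits as a block; correlations of deviations within a strain ran from -0.05 to 0.71 in lung and from -0.05 to 0.68 in skin.

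Aurka and all gene lists were chosen with earlier results of these data known, and the neuronal, liver and testis lists after their values were seen. Named genes were Aurka partners and p53 targets, list members that passed, the 4 mitosis genes with the smallest p per tissue and time, the genes most like Aurka (10 over both tissues, 5 within each) and the 5 lowest at 1 h in both tissues; other genes were named after their values were seen. Alternatives were no centring, quantile scaling, centring on features of close ratio (added after seeing the data), ratios of 0 as missing, features at the limit left out, no block, the lung array sets as a further block, only the groups compared, and leaving out each array or strain. The fit was tested on simulated data.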

Additional observations from a re-analysis of the deposited data

How the results depend on the processing

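The Aurka difference from control kept its negative sign under every alternative run at 1 h and 72 h in lung and at all times in skin. Aurka was chosen for low values, and all 3 strain differences were negative in each of these comparisons. With a strain left out the sign was therefore fixed beforehand and is no support. With an array or strain left out it ran from -1.36 to -0.61 in lung at 1 h (-0.61 without A/J) and from -0.17 to 0.28 in lung at 12 h, with -0.17 without the C57BL/6J control. In skin at 1 h it was -1.04 with quantile scaling and -1.01 when centred on features of close ratio. The skin difference of 72 h against 12 h turned sign without C3H/HeMs at 12 h (0.0013), at 72 h (0.05) or on all its skin arrays (0.12), in a left-out range of -0.34 to 0.12. The lung difference of 72 h against 12 h ran from -1.47 to -1.26 with an array or strain left out, and its adjusted p from 0.246 to 1 over all alternatives. With no replicate block it was -1.36 with an adjusted limma p of 0.552, and leaving out the block changed no Aurka call. The skin control minus lung control was positive under all 33 alternatives (1.05 to 1.66). Counts of features that passed in lung depended on the fit: 6 at 72 h with no replicate block, 6 at 12 h and 0 at 72 h with the lung array sets as a further block, and 0 at each time when only the groups compared were fitted, where fewer arrays set the spread. With an array or strain left out the counts were 0 to 1 at 1 h, 0 to 10 at 12 h and 0 to 8 at 72 h in lung, and 0 to 1 at each time in skin. In lung at 72 h, the lowest count with a single array left out was 2, without the A/J or C3H/HeMs control or 72 h array. The mitosis median in lung, never far from 0, changed sign with some arrays left out. Aurka had 1 probe, so no comparison between probes was possible, and depth over background was not analysed here.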
